A study of Zea mays with 4 samples.

Results

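A group of 7 genes of DNA replication and deoxynucleotide supply was followed in the elongation zone of the growing maize leaf, the stretch of blade where cells lengthen after they have stopped dividing. They were chosen by name from the gene column of the deposited table, with earlier results of these data known. All 7 were found, each as 1 locus of 30378 and each the only gene of its locus. RNRS1 and RNRS3 encode small subunits of ribonucleotide reductase, orc2 a subunit of the origin recognition complex, MCM6 and SLD5 subunits of the replicative helicase, and PCNA and pcna2 the sliding clamp. All 7 passed the filter for testing, which was 1 FPKM (fragments per kilobase of transcript, relative to all fragments mapped in a library) or more in at least 2 libraries. Of these, 6 reached 1 FPKM in all 4 libraries. orc2 reached it in HN1, HN2 and LN2 only, so it met the filter through its HN libraries, the group where it is higher.

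The study compared maize inbred line B73, the line of the reference genome, at 2 nitrogen supplies in hydroponic culture. HN plants received 4 mM nitrogen by the sample descriptions (another label of these samples gives the unit as nM) and LN plants 0.04 mM, and each group gave 2 RNA-seq libraries from this zone of a single leaf position, the sixth leaf. No other treatment, allele or age is named in the labels. The labels do not say whether libraries within a group are from different plants, so the p-values below reflect the spread between libraries alone, and that spread may be technical.

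DNA is copied once per cell cycle, in S phase. The origin recognition complex marks the places where copying can start and loads the ring-shaped MCM helicase, which becomes active when CDC45 and the GINS complex, of which SLD5 is a subunit, join it. PCNA is a ring that holds the DNA polymerase on its template, and ribonucleotide reductase makes the deoxynucleotides that the polymerase consumes. In a grass leaf, cells divide at the base of the blade and are then displaced through the elongation zone, so genes of S phase are usually most active below the zone that was sampled here.

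The zone was checked against marker genes, and the libraries against each other. Of 19 genes of expansins, a xyloglucan endotransglucosylase and primary-wall cellulose synthases, 17 passed the filter. The 19 together lay between 1112 and 1384 FPKM in all 4 libraries, but single genes moved both ways. Both LN libraries were above both HN libraries for 9 of the 17 and below them for 3. Among all tested loci these shares were 36.6% and 29.9%. limma called 0 of the 17, while the authors' deposited table has 1 lower. Without adjustment limma's p was under 0.05 for 4, 3 higher and 1 lower, beside 15.9% and 16.4% of all tested loci. The log2 change of the most abundant wall gene, CesA-6, was 0.61 (limma adjusted p = 0.187) and that of CesA-2, the next, was 0.73 (limma adjusted p = 0.117). The meristem gene kn1 was at 0.0507 and 0.0715 FPKM in HN1 and HN2 and was listed at 0 in LN1 and LN2. Absolute depth is unknown, since the values are FPKM. Relative depth was estimated from the lowest values, where a locus holds very few fragments, as the most common ratio to LN1. This assumes equal fragment numbers in both libraries at those loci. By this estimate HN1 had 75.8%, HN2 64.3% and LN2 91.6% of the depth of LN1, from 238, 158 and 317 loci. The libraries of HN differed from each other more than those of LN. The median ratio of HN2 to HN1 over all tested loci was 1.07, but 1.34 in the most abundant of 5 equal classes by level.

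All 7 genes had lower levels in both LN libraries than in either HN library. Mean levels were 2.49-fold lower for MCM6 and 5.12-fold lower for RNRS1, with the other genes in between. By limma, 3 of the 7 genes fell at an adjusted p under 0.05, namely SLD5, RNRS1 and orc2. The other 4, pcna2, MCM6, PCNA and RNRS3, had adjusted p-values from 0.0510 to 0.0742. Among all 22489 tested loci, 3.80% were called lower and 1.18% higher, 29.9% had both LN libraries below both HN libraries, and 36.6% had both above. Changes are given on the log2(FPKM + 1) scale, where their median was -1.54 over the 7 genes and 0.07 over all tested loci. Since the 7 genes were chosen with earlier results known, these shares and medians are a background and not a test of the group. In bulk tissue, fewer cells in S phase and less transcript per cell cannot be told apart.

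The count of 3 rested on the library set and on the settings. Under quantile normalization all 7 were called lower (1749 loci lower and 971 higher in all, against 855 and 266). With a pseudocount of 0.1 the count was 0 (69 and 32), and with all loci above 0 tested it was 0 (0 and 1). It was 4 with libraries scaled to the same median (1174 and 251) and 3 without the mean-variance trend (911 and 255). With a filter at 5 FPKM it was 3 of the 6 genes still tested (1087 and 276). Without HN1 the count was 7 (5305 loci lower and 5165 higher in all), without HN2 5 (2469 and 2116), without LN1 0 (43 and 33) and without LN2 0 (62 and 22). In the authors' deposited table, all 7 were lower with q-values from 1.97e-08 for RNRS1 to 0.00074 for MCM6, beside 13.6% of the tested loci called lower there.

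**Figure D1:**
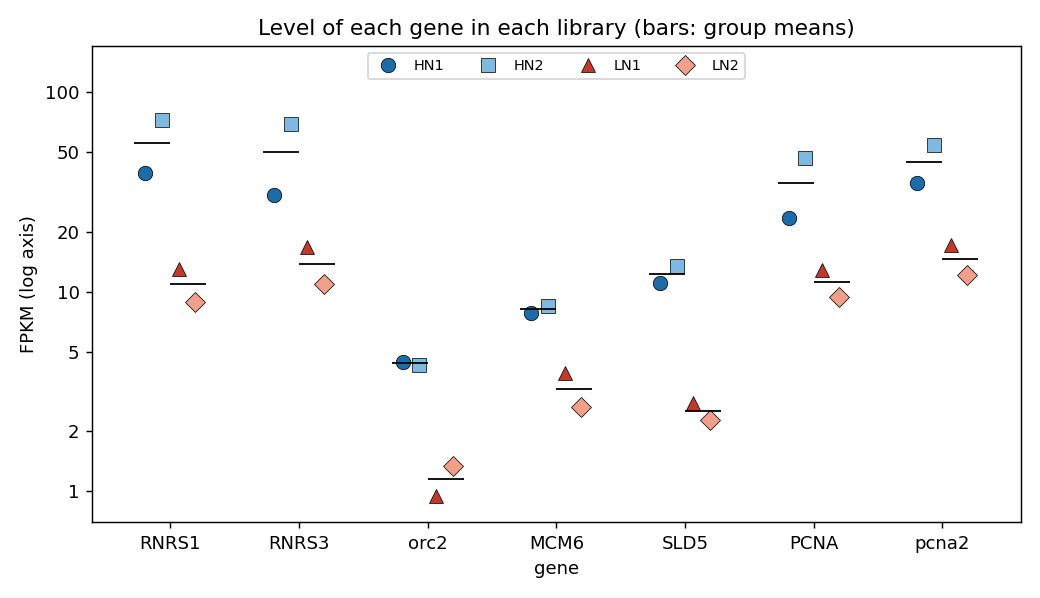
FPKM of each of the 7 genes (horizontal axis) on a log axis in the 4 libraries, with a bar for each group mean. Both LN points lie below both HN points for every gene, and the HN points lie far apart for RNRS1, RNRS3, PCNA and pcna2 but close together for orc2, MCM6 and SLD5.

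Among the genes of nucleotide supply, RNRS1 (GRMZM2G060163, chromosome 9, 30855561 to 30857663, B73 RefGen_v3 as for all positions here) was at 39.4 and 72.2 FPKM in HN1 and HN2 and 12.9 and 8.87 in LN1 and LN2. The lower HN library was still 3.04 times the higher LN library. RNRS1 fell from 55.8 ± 23.2 to 10.9 ± 2.87 FPKM (SD, n = 2), or by -2.21 in log2 terms (SE 0.35, 95% interval -3.09 to -1.33, limma adjusted p = 0.0446). Only 0.618% of tested loci had a log2 change as low or lower.

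RNRS3 (GRMZM2G323679, chromosome 2, 33266049 to 33267574), a second small-subunit gene, was at 30.6 and 69.0 FPKM in HN1 and HN2 and 16.7 and 10.9 in LN1 and LN2. Its HN libraries differed 2.25-fold, the widest gap of the 7 genes, while HN1 was 1.84 times LN1. The log2 change was -1.70 (SE 0.43, 95% interval -2.77 to -0.63, limma adjusted p = 0.0742), which did not pass the threshold.

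RNRS2, the third small-subunit gene measured, differed less between the groups. It was at 10.3 and 18.1 FPKM in HN1 and HN2 and 9.66 and 7.78 in LN1 and LN2, with a log2 change of -0.60 (95% interval -1.37 to 0.16, limma adjusted p = 0.231). Within each library, where scaling cancels, RNRS1 was 3.81 and 4.00 times RNRS2 in HN1 and HN2 but 1.34 and 1.14 times in LN1 and LN2. RNRS3 was 2.96 and 3.82 times RNRS2 in HN and 1.72 and 1.40 times in LN. The level of RNRS1 relative to RNRS3 also separated the groups, at 1.29 and 1.05 in HN against 0.777 and 0.813 in LN.

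RNRL2, a gene of the large, catalytic subunit, was at 3.57, 2.22, 1.88 and 1.34 FPKM in HN1, HN2, LN1 and LN2 (limma adjusted p = 0.216). tk1, a thymidine kinase gene of the salvage route to deoxynucleotides, was at 9.70, 11.3, 7.32 and 6.47 FPKM in the same order (limma adjusted p = 0.145). Both genes, like RNRS2, had both LN libraries below both HN libraries, as did 29.9% of all tested loci. Their log2 changes of -0.56 and -0.54 were about the size of that of RNRS2.

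At the origin, orc2 (GRMZM2G117238, chromosome 5, 190532564 to 190536335) was at 4.45 and 4.31 FPKM in HN1 and HN2 and 0.952 and 1.34 in LN1 and LN2. The HN libraries were nearly equal, and the lower of them was 3.21 times the higher LN library. orc2 fell from 4.38 ± 0.0932 to 1.15 ± 0.277 FPKM (SD, n = 2), with a log2 change of -1.33 (SE 0.22, 95% interval -1.89 to -0.77, limma adjusted p = 0.0454). It had the lowest level of the 7 genes in every library, so the added pseudocount of 1 takes up much of its change. On the log2(FPKM + 0.1) scale the change was -1.86, with a limma adjusted p of 0.0539, and the fold between means was 3.82.

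The other measured subunits of the origin recognition complex had log2 changes near 0, with intervals reaching to both sides of it. orc4 was at 13.3, 11.1, 10.4 and 11.3 FPKM in HN1, HN2, LN1 and LN2, a log2 change of -0.15 (95% interval -0.67 to 0.36). orc3 was at 3.23, 5.06, 4.11 and 3.06 FPKM and orc1 at 3.93, 2.24, 2.48 and 2.93 FPKM, and for all 3 genes the groups overlapped. Their limma adjusted p-values ran from 0.635 to 0.805, and the sign of the small changes of orc1 and orc3 turned when single libraries were left out. Relative to the geometric mean of orc1, orc3 and orc4, orc2 stood at 0.804 and 0.861 in HN1 and HN2 and 0.201 and 0.288 in LN1 and LN2. This ratio was 3.45-fold lower in LN, the largest shift among the 7 ratios that were compared.

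Of the helicase genes, SLD5 (GRMZM2G164325, chromosome 2, 210485381 to 210501003) was at 11.1 and 13.4 FPKM in HN1 and HN2 and 2.76 and 2.27 in LN1 and LN2. The lower HN library was 4.01 times the higher LN library, the widest separation of the 7 genes. SLD5 fell from 12.2 ± 1.68 to 2.51 ± 0.344 FPKM (SD, n = 2), with a log2 change of -1.91 (SE 0.22, 95% interval -2.47 to -1.35) and the smallest limma adjusted p of the 7, 0.0431. The 15623 bp listed for SLD5, against 1526 to 6314 bp for the others, are listed for GRMZM2G464000 too, which had values of its own, 13.1 and 6.40 FPKM in HN1 and HN2 and 19.2 and 17.4 in LN1 and LN2. The interval is therefore not that of SLD5 alone, and reads that fit both genes may not have been told apart.

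MCM6 (GRMZM2G021069, chromosome 8, 110042599 to 110048912) was at 7.81 and 8.50 FPKM in HN1 and HN2 and 3.89 and 2.65 in LN1 and LN2. Its change was the smallest of the 7 genes, -1.11 on the log2 scale (SE 0.24, 95% interval -1.72 to -0.51, limma adjusted p = 0.0589), and did not pass. MCM7, another subunit of the helicase ring, had nearly the same levels, at 7.51, 8.17, 3.98 and 2.67 FPKM in HN1, HN2, LN1 and LN2. Its log2 change was -1.05 (limma adjusted p = 0.0654). The ratio of MCM6 to MCM7 was 1.04 in both HN libraries and 0.978 and 0.991 in LN1 and LN2. SLD5, by contrast, was 1.42 and 1.58 times MCM6 in HN and 0.708 and 0.857 times in LN.

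The clamp genes had much the same pattern. PCNA (chromosome 5, 214473507 to 214475861) was at 23.4 and 46.4 FPKM in HN1 and HN2 and 12.8 and 9.45 in LN1 and LN2, and pcna2 (GRMZM2G108712, chromosome 4, 173062871 to 173064850) at 35.0, 54.5, 17.1 and 12.2 FPKM. The log2 change of PCNA was -1.50 (SE 0.36, limma adjusted p = 0.0690) and that of pcna2 -1.54 (SE 0.30, limma adjusted p = 0.0510), so neither passed. The ratio of pcna2 to PCNA was 1.50 and 1.17 in HN1 and HN2 and 1.33 and 1.29 in LN1 and LN2, with overlapping groups. The 2 genes encode the same kind of protein, as do the RNRS genes, and may share reads, but their sequences were not compared here. How reads that match several genes were shared out is not given in the sources used here.

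For 6 of the 7 ratios the groups did not overlap, pcna2 to PCNA being the exception. Each of these 6 had a two-sided exact permutation p of 0.333 (0.389 adjusted over the 7 ratios), the smallest that 2 libraries against 2 allow. The pairs were chosen after their values had been seen, and the differences between genes were not tested in another way.

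**Figure D2:**
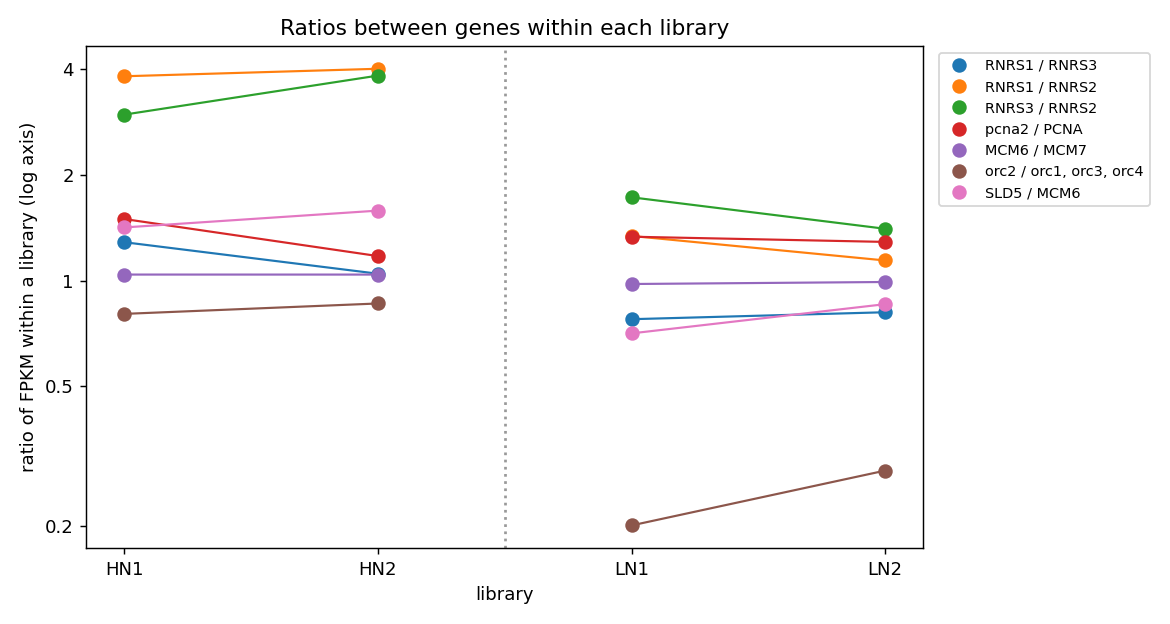
Ratio of FPKM between genes within each of the 4 libraries (horizontal axis) on a log axis, with lines joining the libraries of a group. MCM6 to MCM7 and pcna2 to PCNA stayed between 0.978 and 1.50 in every library, while orc2 relative to orc1, orc3 and orc4 was 0.804 and 0.861 in HN against 0.201 and 0.288 in LN.

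The other replication genes that could be recognised by symbol had log2 changes from -1.05 to 0.35, while those of the 7 ran from -2.21 to -1.11. The 7 genes and the lists were chosen with earlier results of these data known. The gap between them is therefore not a test of a difference. At its edge, MCM7 (-1.05, limma interval -1.66 to -0.43) and MCM6 (-1.11, limma interval -1.72 to -0.51) were nearly equal. Besides the RNR, ORC, MCM7 and tk1 genes above, the other replication genes were FEN-1 and Top1. FEN-1 is the flap endonuclease that trims lagging-strand fragments, and Top1 a topoisomerase that relieves the twisting of DNA ahead of the fork. FEN-1 was at 6.01, 6.31, 3.28 and 2.54 FPKM in HN1, HN2, LN1 and LN2. The log2 change was -0.88 (limma adjusted p = 0.0740), but its interval of 260261 bp is also listed for 12 other loci, and its level may not be that of FEN-1 alone. Top1 was at 32.6, 20.6, 32.5 and 34.1 FPKM, or 0.35 higher on the log2 scale in LN (limma adjusted p = 0.401). Of these 9 genes, limma called 0 in either direction, 3 were lower and 0 higher at an unadjusted p under 0.05 (16.4% of all tested loci were lower by that measure), and 2, MCM7 and FEN-1, were lower in the authors' deposited table. The median log2 change of the 9 was -0.54, and 8 were negative, as were 10191 of all 22489 tested loci. All 9 are given here, beyond those that the naming rule required.

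**Figure D3:**
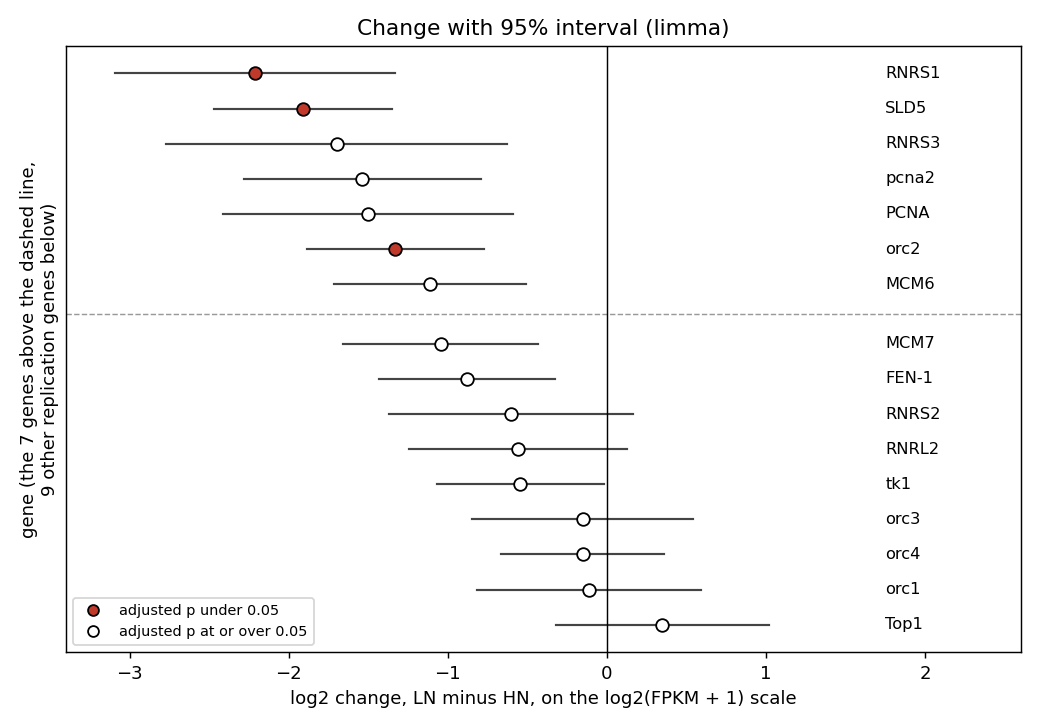
Change in LN relative to HN on the log2(FPKM + 1) scale (horizontal axis) with its 95% interval from limma, for the 7 genes and, below the dashed line, the 9 other replication genes. Filled points mark the 3 genes with an adjusted p under 0.05. The intervals of MCM7, FEN-1 and tk1 also lie below 0, while those of the other 6 include it.

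Levels of the 7 genes in FPKM, which allows for transcript length, fell into a high and a low set. Shared reads may affect the order, for the RNRS and clamp genes and for SLD5. In HN, the order was RNRS1, RNRS3 (49.8 ± 27.2 FPKM), pcna2 (44.8 ± 13.8) and PCNA (34.9 ± 16.3), whose ranges overlapped from neighbour to neighbour. SLD5, MCM6 (8.15 ± 0.488 FPKM) and orc2 followed, each below the one before it in both libraries and with no overlap.

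In LN the order was pcna2 (14.6 ± 3.45 FPKM), RNRS3 (13.8 ± 4.05), PCNA (11.1 ± 2.37), RNRS1, MCM6 (3.27 ± 0.880), SLD5 and orc2. RNRS1 thus stood in the first place in HN and in the fourth in LN, and MCM6 and SLD5 changed places. Neighbours among the upper 4 overlapped again, as did MCM6 and SLD5.

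The high and the low set also differed in how the libraries of HN compared. HN2 was above HN1 by 1.56-fold for pcna2, 1.83-fold for RNRS1, 1.98-fold for PCNA and 2.25-fold for RNRS3, and 22.0% of all tested loci had HN2 at 1.5 times HN1 or more. For SLD5 and MCM6 the ratios were 1.21 and 1.09, and for orc2 0.970. In the class of loci by level that holds RNRS1, RNRS3, PCNA and pcna2 the median ratio was 1.09, and in those that hold the other 3 it was 0.926 and 0.929. In LN, LN1 was above LN2 for all genes except orc2, by 1.21-fold for SLD5 to 1.53-fold for RNRS3, while the median over all tested loci was 0.991.

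**Figure D4:**
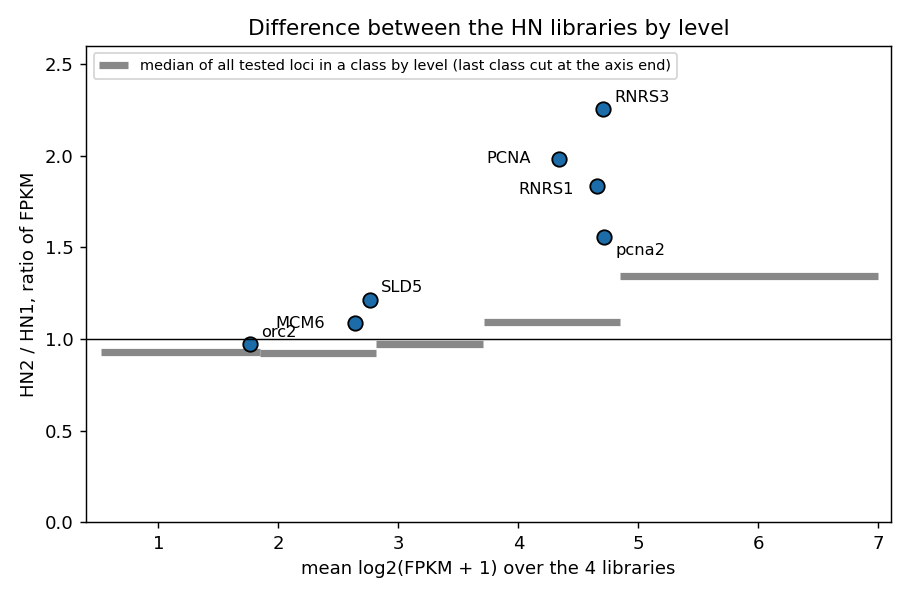
Ratio of FPKM in HN2 to that in HN1 (vertical axis) against the mean log2(FPKM + 1) over the 4 libraries, for the 7 genes as points and for all tested loci as the median of each of 5 equal classes by level (grey bars). RNRS3, PCNA, RNRS1 and pcna2 lie between 1.56 and 2.25, above the median of 1.09 of their class.

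Core histone genes, whose products package the newly made DNA, also differed between HN1 and HN2. All 26 histone loci were higher in HN2 than in HN1, as were 12357 of all 22489 tested loci. Their median ratio of HN2 to HN1 was 1.99, against 1.34 in the most abundant of the 5 classes by level. All 26 had both LN libraries below both HN libraries, as did 29.9% of all tested loci. limma called 15 of the histone loci lower, beside 3.80% of all tested loci, and the median log2 change of the 26 was -2.15. The 4 with the smallest adjusted p were his2b5, with a log2 change of -2.58, and 3 loci named H4C7, with log2 changes of -2.56, -2.36 and -2.25. Many of these loci carry the same gene name and may share reads. Without LN1 or LN2, 0 were called.

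Genes of cell division regulators had changes of both signs. Of 20 cyclin, cyclin-dependent kinase, E2F partner, retinoblastoma-related, spindle and chromosome structure genes, found by symbol, 19 were tested. limma called 1 lower and 0 higher, and 4 were lower and 5 higher at an unadjusted p under 0.05, beside 16.4% and 15.9% of all tested loci. The called gene, dnp1, was on the list only because its other name is DP1, a name also used for partners of the E2F factors, and whether it regulates the cell cycle is not known here. It fell from 55.1 ± 0.764 to 26.3 ± 0.870 FPKM, by -1.04 in log2 terms (limma adjusted p = 0.0471). Its call ended without the mean-variance trend, with a pseudocount of 0.1, with all loci above 0 tested and without LN1 or LN2. The median log2 change of the list was 0.05, and -0.04 when libraries were scaled to the same median. Its spindle and chromosome structure genes are MAD2, CenpcA, SMC3 and SMC6 alone, so the list holds little that is specific to mitosis.

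FPKM summed over all loci was itself unequal, at 814307 and 1113329 in HN1 and HN2 and 666397 and 710263 in LN1 and LN2. Neither the main fit nor the sums below were scaled for this. The median log2 change of the 7 genes was -1.64 with libraries scaled to the same median FPKM and -1.53 under quantile normalization. It was -1.54 in the main fit. Scaling to the same total was not tried, and the part of the unequal totals in the sums was not tested. Summed over each list, the 7 genes reached 152 and 268 FPKM in HN1 and HN2 and 67.0 and 47.7 FPKM in LN1 and LN2. The 9 other replication genes summed to between 72.3 and 90.2 FPKM in all 4 libraries and the cell division genes to between 211 and 230 FPKM. Core histone loci summed to 5718 and 10943 FPKM in HN1 and HN2 and to 1965 and 1752 FPKM in LN1 and LN2. The markers of mature photosynthetic cells, 12 light-harvesting, rubisco and rubisco activase loci, lay in the same order, with sums of 8732 and 15639 FPKM in HN1 and HN2 and of 4792 and 2661 FPKM in LN1 and LN2. Of these 12 loci, 2 carry the name CAB-M9 and the same interval. The 11 tested ones all had negative changes, and 10 had both LN libraries below both HN libraries, beside 29.9% of all tested loci. The exception was the less abundant CAB-M9 locus (limma adjusted p = 0.445). limma called 5 of the 11 lower, beside 3.80% of all tested loci, and rca3 was listed at 0 in HN2 and both LN libraries. Rubisco small subunit loci RBCS and rbcS, the activase gene RA (rca1) and lhcb4 had the smallest limma adjusted p-values, 0.0365 to 0.0446, with log2 changes of -2.43, -2.47, -1.96 and -1.75. The part of dividing or photosynthetic cells in the difference of the 7 genes was not tested.

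**Figure D5:**
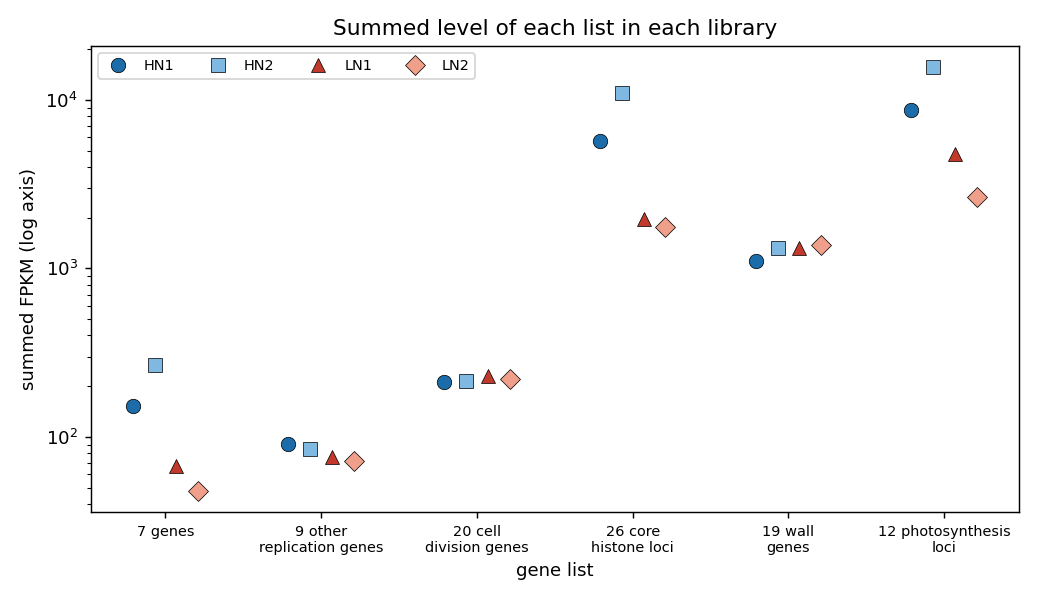
Summed FPKM on a log axis of the 7 genes and of 5 gene lists (horizontal axis) in the 4 libraries. The 7 genes, the core histone loci and the photosynthesis genes run in the order HN2, HN1, LN1, LN2, while the other lists stay within a narrow band.

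Genes with the most similar pattern were sought among 1457 tested loci with a symbol and a mean of 5 FPKM or more. Likeness was the Euclidean distance over the 4 libraries between a locus's centred log2(FPKM + 1) profile and the average profile of the 7 genes. The 6 closest were the photosystem I subunit gene PSAH (distance 0.133), the glutathione transferase gene GST4 (0.146), a histone locus named H4C7 (0.206), the photosystem I subunit gene psad1 (0.231), vdac1a of the mitochondrial outer membrane channel (0.249) and COL8 (0.251). The 7 genes themselves lay at 0.129 for pcna2 to 0.657 for orc2, and the median candidate at 1.56. PSAH, the closest, was at 675 and 1013 FPKM in HN1 and HN2 and 314 and 221 in LN1 and LN2. With 4 libraries this measure is a description only.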

How the data were processed

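The deposited table holds FPKM values per locus for 4 libraries, computed by the authors, and, per the file headers, the authors' test of LN against HN, as a p-value, a q-value and a log2 fold change. TopHat2, edgeR and the build B73 RefGen_v3 are named in the submitters' processing notes. How transcripts were assembled is not given in the sources used here. Both nitrogen supplies are those of the sample descriptions, in mM, although the HN source name has nM. Both HN columns carry the same name, so HN1 and HN2 are the first and second of them and carry no replicate number.

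The 31324 rows were collapsed to 30378 loci. The main test was limma-trend (limma 3.58.1, R 4.3.3) on log2(FPKM + 1), group as the only term, on 22489 loci with 1 FPKM or more in at least 2 libraries, two-sided, with Benjamini-Hochberg adjustment over all of them and a threshold of 0.05. It was also run on simulated data in which noise was independent between loci and libraries. That setting lacks the level-dependent difference between HN1 and HN2, and no result here rests on it. SDs are over n = 2 libraries. Relative depth came from loci under 0.1 FPKM. Gene names came from RefSeq's gene table, used for names alone. The members and lists were chosen with earlier results of these data known. Another 7 loci whose abbreviation names a different protein (kinesins, a CMP-KDO synthetase, linker histones) were left out of the lists after their values had been seen. Of each list, the text names up to 4 called members by smallest adjusted p, or the 2 most abundant where none was called. Exonic or intronic position was not analysed here. Alternatives covered the pseudocount, the filter, the scaling, the trend and each library left out.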

Additional observations from a re-analysis of the deposited data

How the results depend on the processing

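All 7 genes kept a negative change in each of the 76 alternative values, while their calls depended on the setting. With a pseudocount of 0.1, 0 of the 7 genes, 0 cell division genes, 0 histone loci and 101 loci in all were called, and with all loci above 0 tested the counts were 0, 0, 0 and 1. Under quantile normalization 7 of the 7 genes, 2 of the 9 other replication genes, 4 cell division genes, 23 histone loci and 2720 loci were called. In the authors' deposited table the counts were 7, 2, 6, 26 and 4359. Without the mean-variance trend 0 cell division genes were called. Leaving out single libraries gave 0 to 7 of the 7 genes, 0 to 5 other replication genes, 0 to 9 cell division genes, 0 to 26 histone loci and 76 to 10470 loci. There the lone library was assumed to vary like the other group, and the spread came from the other pair alone. In these fits the log2 change of orc3 ran from -0.41 to 0.11 and that of orc1 from -0.42 to 0.19. orc2 did not reach a filter at 5 FPKM. On profiles of log2(FPKM + 0.1), 4 of the 6 most similar loci were the same. The cause of these shifts was not tested. No paired analysis was possible because both HN columns carry the same name and so no replicate number. FPKM without counts gives no depth per gene, so counting error could not be set apart from the spread between libraries.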
